A study of Mus musculus with 4 samples.

Results

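The heat shock proteins and their DNAJ cochaperones were examined in HT22 cells, an immortalised mouse line of hippocampal origin. Members were the rows of the deposited count table whose symbol begins with Hsp or Dnaj followed by a family letter and number, together with the heat shock factors Hsf1 and Hsf2 and the cochaperone Bag3. Endoplasmic reticulum (ER) genes Hspa5, Hsp90b1, Dnajb9, Dnajb11 and Dnajc3 and all pseudogenes were left out. This gave 68 genes out of 16846 rows. The rule goes by gene name, although it was chosen with earlier results of these data known. Of the 68 members, 57 passed the filter on low counts and were among the 12115 genes tested. The other 11 held 1 to 53 counts over all libraries together, and 5 of them held 10 or fewer. A gene can pass that filter through the group where it is high, so counts over the tested members do not speak for all 68.

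The series concerns Ntoco, a long noncoding RNA that its title links to ferroptosis after traumatic brain injury. Cells of 4 groups were sequenced, which carried a control hairpin RNA (sh-Ctrl), a hairpin against Ntoco (sh-Ntoco), an empty vector (Vector) or a vector with Ntoco (Lv-Ntoco). They are called shRNA control, knockdown, empty vector and overexpression here. Sample titles number the cells HT22 to HT25, whereas the cell line field says HT22 for all. The labels list 1 sample per group, while the tables hold 2 numbered columns per group, treated here as library 1 and library 2. Whether these are separate cultures is not stated, and the p-values reflect the spread between these libraries alone, which may be technical. In the column names the target carries an unexplained abbreviation and the vector is called pcDNA, where the label has Lv, so the delivery is uncertain. Nothing in the labels names a clone, a treatment or a stress applied to the cells.

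Library totals ran from 18452588 to 19859041 counts. Rows named Ntoco numbered 0, so its level was not analysed here and does not check the group labels. Of 7 neuron markers, 5 had rows, all with a mean below 1 CPM (counts scaled to library size), and their summed level was 0.571 to 1.16 CPM. Collagen genes listed as fibroblast markers were abundant, with a summed list level of 1334 to 4845 CPM, while Dcn and Lum of that list were at or near 0. The defining neuron markers were therefore near 0 in all 8 libraries, although the line comes from hippocampal neurons.

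Heat shock proteins are chaperones that bind unfolded proteins and help them fold, refold or be degraded. HSP70 proteins do this in cycles of ATP hydrolysis, DNAJ proteins (also called HSP40) deliver clients and stimulate that hydrolysis, and HSP110 proteins and Bag3 exchange the nucleotide. When unfolded proteins accumulate, the factor HSF1 is released from chaperones, forms trimers and binds heat shock elements, inverted repeats of the unit nGAAn in the promoters of its targets. Neurons are known for a weak heat shock response, and chaperone levels in the hippocampus have been studied widely after ischaemia and injury.

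Heat shock elements were searched in the promoters of the members, because these are the sequences that HSF1 binds. Several of the genes described below vary together, and the part of HSF1 in that was not tested. Promoters were 300 bases long, 250 before and 50 after each start site, from RefSeq on build GRCm38.p6. All 68 members matched RefSeq by gene identifier, and 53 of them had promoters in that table, 70 promoters in all. The pattern was GAA and TTC units in alternation with 2 bases between them, on both strands and with no mismatch. At least 3 units in a row occurred in 6 of the 70 member promoters (8.57%), from 4 genes, and in 0.603% of all 32851 promoters. Some genes have several promoters, so the share was also taken per gene: 7.55% of the 53 members and 0.662% of all 27025 genes. Of the 4 genes, Hspd1 and Hspe1 share a single run. At least 2 units (GAANNTTC or TTCNNGAA) occurred in 24.3% of member promoters and in 15.1% of all promoters, or per gene in 28.3% and 17.0%. Not all the genes that vary together had a match: Dnajb1 and Hspa2 had promoters in the table and matched at neither length. Hspa8 and Hspa13 had no promoter in it. Bag3, Dnajb4 and Hspb8 also had 2 units and the library order described below for Hspa8, and their windows are not shown. Others with that order by any amount had promoters and matched at neither length: Dnaja2, Dnajb2, Dnajb5, Dnajc13, Dnajc15, Dnajc17, Dnajc24, Dnajc25, Hsf2, Hspa4 and Hspa4l. Dnajc10, Dnajc27 and Hspb6 had 2 units without that order. Windows of 30 bases are shown for the 4 genes with at least 3 units and for Hspa1a, Hspa1b and Dnaja1, which vary together and had 2 units, read 5′ to 3′ on the gene's strand with the units in capitals.
Hsph1: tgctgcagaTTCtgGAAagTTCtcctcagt
Hspd1: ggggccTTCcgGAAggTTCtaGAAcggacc
Hspe1: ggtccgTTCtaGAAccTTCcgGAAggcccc
Dnajb6: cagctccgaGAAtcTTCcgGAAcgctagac
Hspa1a: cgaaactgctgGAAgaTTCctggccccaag
Hspa1b: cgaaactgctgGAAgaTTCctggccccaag
Dnaja1: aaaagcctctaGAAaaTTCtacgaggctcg

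The Hspd1 and Hspe1 windows are the same 30 bases of chr1:55088053-55088082 read on opposite strands, since these mitochondrial chaperonin genes lie head to head and share 1 run of 4 units. The Hsph1 window lies at chr5:149636280-149636309 on the minus strand and its run of 3 units begins 15 bases after the start site. The Dnajb6 window lies at chr5:29735843-29735872 on the plus strand, with 3 units that begin 46 bases before the start site. The inducible HSP70 genes Hspa1a (window chr17:34972242-34972271, minus strand) and Hspa1b (chr17:34959324-34959353, minus strand) carry an identical window with 2 units, 104 bases before each start site. The Dnaja1 window is chr4:40722333-40722362 on the plus strand, with 2 units. Hspd1, with the longest run, did not have the library order described below for Hspa8 and Hspa1b. A match describes letters only, and these windows were not assayed for HSF1 binding.

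Across the Ntoco comparisons, 0 of the 57 tested members passed an adjusted p of 0.05 in edgeR's quasi-likelihood test, where 0.0% of all genes tested passed in each of the 4 contrasts. At an unadjusted p below 0.05 the knockdown had 0 members, against 1.51% of all genes higher and 1.61% lower. Overexpression had 2 higher (Dnajc2 and Dnajc22) and 2 lower (Dnajb12 and Dnajc27) of 57, against 3.53% and 4.09% of all genes. The median log2 ratio of the members was -0.0013 in the knockdown and 0.07 with overexpression, beside 0.0055 and -0.0059 over all genes tested. Without empty vector library 2 the overexpression median was -0.12, and without empty vector library 1 it was 0.23. DESeq2 also called 0 members in each contrast. A missed threshold with 2 libraries per group does not show that the levels were equal.

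A few HSP70 genes and partners varied more between the 2 libraries of one and the same group than between groups. The members as a whole did not vary widely: their median range over the 8 libraries was 0.84 (log2), against 0.96 for all genes tested. Hspa8 (chr9:40801276-40805202), the main constitutive cytosolic HSP70, stood at 2789 and 865 CPM in the shRNA control libraries, 1392 and 1233 in the knockdown, 6196 and 434 in the empty vector, and 631 and 4033 in the overexpression libraries. Empty vector library 1 was the highest of the 8 and empty vector library 2 the lowest, so all other libraries lay inside the range of a single group. The ratio between the libraries was 14.3-fold in the empty vector, 6.40-fold with overexpression, 3.22-fold in the shRNA control and 1.13-fold in the knockdown. Of 2612 tested genes with a mean of at least 100 CPM, Hspa8 had the largest difference between the empty vector libraries. It ranked 16 of these 2612 in the shRNA control and 16 in the overexpression group. Against these differences, the log2 ratio of Hspa8 was -0.48 with a standard error (SE) of 1.16 for the knockdown and -0.51 (SE 1.16) for overexpression, with adjusted p of 0.996 and 0.881 in edgeR.

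Single libraries decided the sign of the Hspa8 ratio. Without empty vector library 1 the overexpression ratio was 2.43 on the log2 scale, and without overexpression library 2 it was -2.39. Without shRNA control library 1 the knockdown ratio was 0.60, and without shRNA control library 2 it was -1.09.

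The stress-inducible HSP70 genes showed the same library order at a far lower level. Hspa1a (chr17:34969359-34972156) and Hspa1b (chr17:34956429-34959238) encode nearly identical proteins, so their reads can have been split in counting and they were also summed. The sum was 7.65 and 3.53 CPM in the shRNA control, 6.02 and 2.47 in the knockdown, 32.1 and 0.721 in the empty vector, and 1.13 and 20.9 in the overexpression libraries. Empty vector library 1 and overexpression library 2 were high, and their partner libraries were the lowest of all 8. The sums rest on 600 against 14 counts in the empty vector and 22 against 379 counts in the overexpression group, differences of 44.5-fold and 18.5-fold. Hspa1a alone had 1 count in empty vector library 2 and 2 counts in overexpression library 1. Hspa1b had a log2 ratio of -0.42 (SE 1.53) in the knockdown and -0.62 (SE 1.48) with overexpression, with edgeR adjusted p of 0.998 and 0.888.

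**Figure D1:**
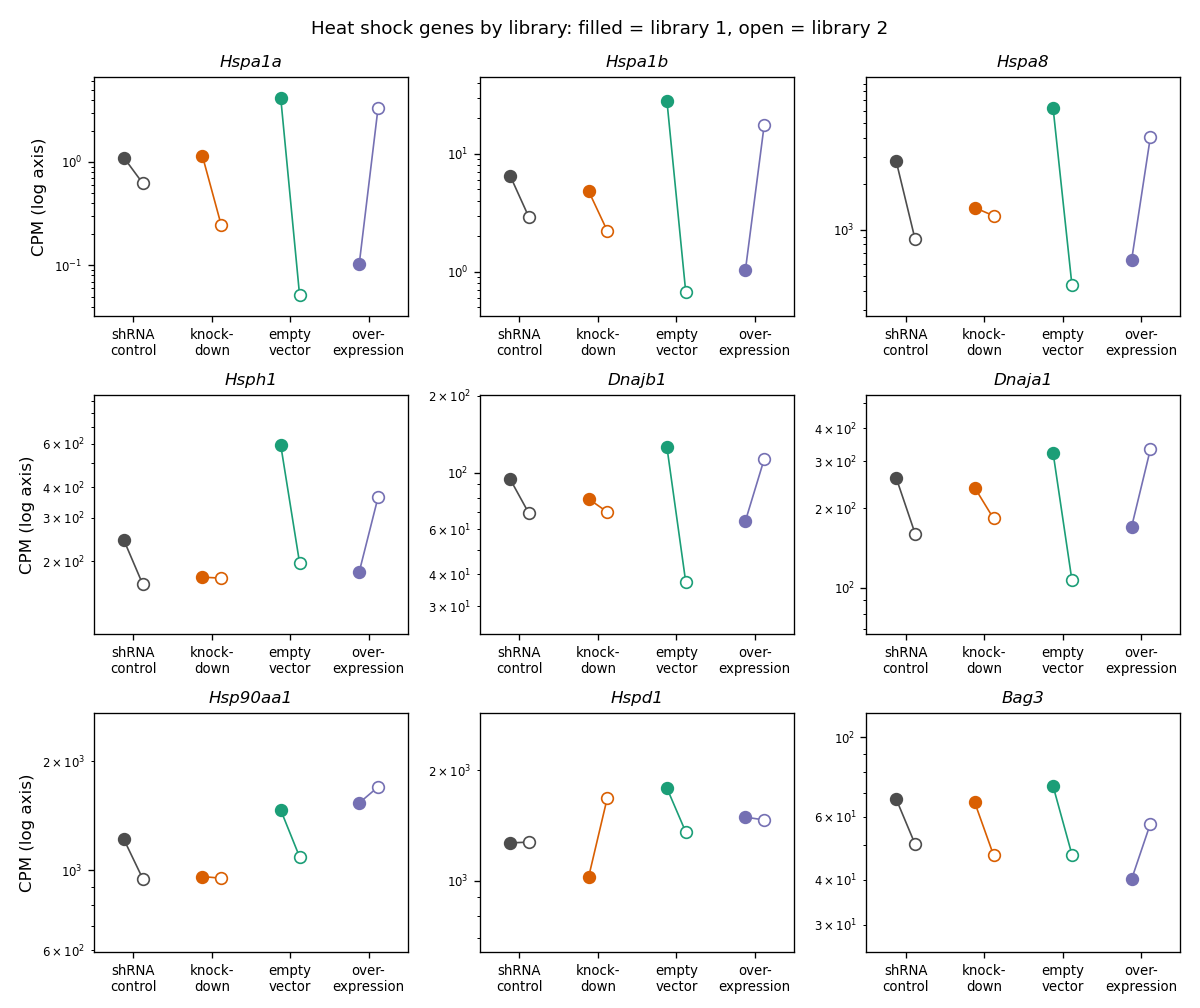
Level of 9 heat shock genes in CPM (log axis, each panel with its own scale) in the 4 groups, where filled points are library 1, open points are library 2 and lines join the libraries of a group. Hspa1a, Hspa1b, Hspa8, Hsph1, Dnajb1 and Dnaja1 are high in empty vector library 1 and overexpression library 2 and lower in the partner libraries, while Hspd1 is widest apart in the knockdown.

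Hsph1, Dnajb1 and Dnaja1, partners of these HSP70 proteins, had the same order of libraries in the vector groups. Hsph1 (HSP105, chr5:149616843-149636498), a nucleotide exchange factor, measured 243 and 161 CPM in the shRNA control, 172 and 170 in the knockdown, 591 and 197 in the empty vector, and 181 and 363 in the overexpression libraries. Empty vector library 1 was highest, overexpression library 2 came next, and the other 6 libraries lay between 161 and 243 CPM. Its log2 ratio was -0.24 (SE 0.51) in the knockdown and -0.54 (SE 0.52) with overexpression, with edgeR adjusted p of 0.996 and 0.703. Dnajb1, the classical inducible HSP40, measured 94.5 and 69.4 CPM in the shRNA control, 79.0 and 70.2 in the knockdown, 126 and 37.2 in the empty vector, and 64.7 and 113 with overexpression. It too was highest in empty vector library 1 and lowest in empty vector library 2. Dnaja1, a farnesylated cytosolic HSP40, measured 260 and 160 CPM, 239 and 183, 322 and 107, and 170 and 334 CPM in the same order of groups. Its highest value was in overexpression library 2 and its lowest in empty vector library 2.

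Counted over all members, 8 of 57 were more than 1 log2 unit higher in empty vector library 1 than in library 2: Dnaja1, Dnajb1, Hspa13, Hspa1a, Hspa1b, Hspa2, Hspa8 and Hsph1. Among all genes tested 3.05% were higher by that much in library 1, and 11.3% differed by that much in either direction. With overexpression, 4 members (Hspa1a, Hspa1b, Hspa8 and Hsph1) were more than 1 log2 unit higher in library 2, where 5.51% of all genes were. These 4 members met both conditions, and so did 0.941% of all genes tested. The knockdown libraries differed by more than 1 log2 unit at 7 members and the shRNA control libraries at 2, beside 16.3% and 7.82% of all genes. A range above 2 log2 units over the 8 libraries occurred in 5 members (Hspa12b, Hspa1a, Hspa1b, Hspa2 and Hspa8), beside 14.7% of all genes. Empty vector library 1 was the highest of all 8 for 19 of 57 members (19.1% of all genes), empty vector library 2 the lowest for 14 (9.76%) and overexpression library 2 the highest for 8 (6.83%). Highest in empty vector library 1 and lowest in empty vector library 2 were 5 members (Dnajb1, Hspa13, Hspa1a, Hspa1b and Hspa8), beside 1.42% of all genes.

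The same order, empty vector library 1 above 2 and overexpression library 2 above 1 by any amount, held for 14 of the 16 measured genes of the classical heat shock set, a list of the best known heat shock genes, mostly cytosolic but with the mitochondrial Hspd1 and Hspe1, and the factors Hsf1 and Hsf2. It held for 26 of the 57 tested members (45.6%) and for 29.4% of all genes tested. Of the 31 tested DNAJ members 13 had it (41.9%), among them 6 of the 21 DNAJC members (28.6%), beside the same 29.4% of all genes. Hspd1 and Hsf1 were the exceptions in the classical set. The DNAJC proteins, most of which are specialised by compartment, had a median absolute difference between libraries of 0.20 (log2) in the empty vector and 0.13 with overexpression, against 1.20 and 0.57 for the HSP70 family. Over all genes tested these medians were 0.33 and 0.26. With overexpression the 3 HSP110 members (0.72) and the 3 tested small heat shock proteins (0.61) had larger medians than the HSP70 family. In the empty vector theirs were 0.31 and 0.62. In the knockdown the DNAJC median was 0.44 and the HSP70 median 0.79, against 0.41 for all genes.

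**Figure D2:**
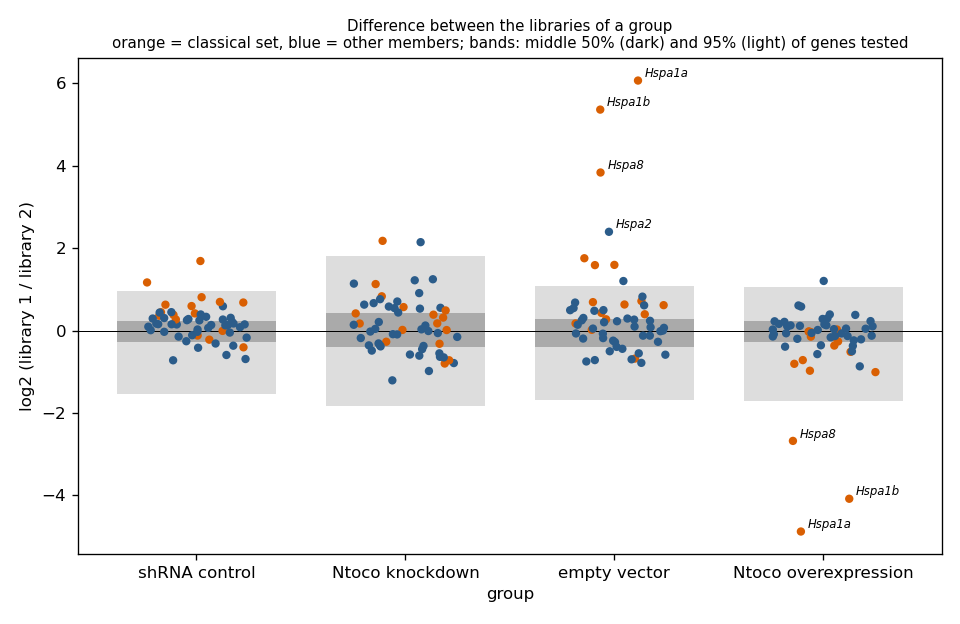
Log2 of library 1 over library 2 in each group for the 57 tested members (points; orange for the classical set, blue for the other members, spread sideways for legibility), with grey bands for the middle 50% (dark) and 95% (light) of the 12115 genes tested. The inducible HSP70 genes and Hspa8 lie above the band in the empty vector and below it with overexpression; the Hspa1a points rest on 1 and 2 counts in the lower library.

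Other transcripts moved with these libraries, while depth did not differ between the empty vector libraries. Total counts of the empty vector libraries were 19588904 and 19622095. Irf7, an interferon-induced transcription factor, was 314 and 154 CPM in the empty vector and 4.48 and 331 CPM with overexpression, against 1.68 to 6.49 CPM in the 4 hairpin libraries. Among tested genes with a mean of at least 100 CPM, 10 shared the pattern of more than 1 log2 unit in both groups: Hspa8, Hsph1, Irf7, Ifi44, Ifitm3, Psmb8, B2m, H2-Q4, Cdkn1a and LOC118568312. Irf7, Ifi44, Ifitm3, Psmb8, B2m and H2-Q4 are known to respond to interferon, and these non-members are named after their values were seen. The summed fibroblast list was 1334 and 2316 CPM in the empty vector and 2341 and 2114 CPM with overexpression. The summed astrocyte list was 3.32 and 14.1 CPM in the empty vector, of which Aldh1l1 made up 1.55 and 12.3 CPM. The part of these differences in the chaperone values was not tested. In bulk RNA, fewer cells of a state and less RNA per cell cannot be told apart.

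The heat shock factors did not pass the test in either Ntoco comparison. Hsf1, the factor that drives the heat shock response, measured 87.8 and 95.4 CPM in the shRNA control, 79.5 and 63.9 in the knockdown, 55.8 and 89.3 in the empty vector, and 69.3 and 70.6 with overexpression. Both knockdown libraries lay below both shRNA control libraries, while the overexpression libraries lay between those of the empty vector. The log2 ratio was -0.35 (SE 0.25, edgeR adjusted p = 0.992) in the knockdown and -0.05 (SE 0.25, adjusted p = 0.945) with overexpression. Hsf1 was the lowest of all 8 in empty vector library 1, the library with the highest Hspa8. The empty vector libraries differed 1.601-fold for Hsf1. Hsf2, a related factor with roles in development, differed 1.74-fold between the knockdown libraries and ranged from 18.8 to 32.7 CPM, with both extremes in the knockdown.

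Per gene length, an HSP90 gene had the highest mean of the members in the shRNA control. Hsp90ab1, the constitutive cytosolic HSP90, had 1547 ± 468 FPKM (SD, n = 2 libraries; a level per gene length) in the shRNA control, the first among members and 11th of all rows. Hspa8 followed with 873 ± 633 FPKM, Hspd1 with 498 ± 15.0, Hspa9 with 468 ± 45.8 and the inducible Hsp90aa1 with 384 ± 57.5 FPKM. Given these spreads, neighbours in this order do not all separate: Hspa8 in library 1 (1320 FPKM) exceeded Hsp90ab1 in library 2 (1216 FPKM), the SD of Hspa8 spans Hspd1, Hspa9 and Hsp90aa1, and Hspd1 and Hspa9 differ by less than the SD of Hspa9. In the empty vector the mean of Hspa8 (1507 FPKM) was above that of Hsp90ab1 (1480 FPKM), with an SD of 1843 for Hspa8. In CPM, Hsp90ab1 stood at 4729 and 2948 in the shRNA control, 4064 and 2282 in the knockdown, 4186 and 3461 in the empty vector, and 3812 and 3909 with overexpression. Groups overlapped, and the log2 ratios were -0.27 (SE 0.32) for the knockdown and 0.01 (SE 0.32) for overexpression.

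Hsp90aa1 was 1216 and 947 CPM in the shRNA control, 960 and 950 in the knockdown, 1466 and 1088 in the empty vector, and 1535 and 1699 with overexpression. Both overexpression libraries were above both empty vector libraries, and the knockdown lay within the shRNA control. The overexpression log2 ratio was 0.34 (SE 0.21), with an edgeR adjusted p of 0.614. The empty vector libraries differed 1.35-fold for Hsp90aa1, against 14.3-fold for Hspa8.

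In the mitochondria, Hspd1 (HSP60) and its lid Hspe1 (HSP10) form the chaperonin, and Hspa9 (mortalin) is the HSP70 that pulls proteins through the inner membrane. Hspd1 was 1267 and 1273 CPM in the shRNA control, 1021 and 1682 in the knockdown, 1785 and 1356 in the empty vector, and 1489 and 1463 with overexpression. Its widest gap was in the knockdown, where library 2 was higher, the reverse of the order of Hspa8 there. Hspe1 was 202 and 155 CPM, 179 and 224, 295 and 180, and 251 and 255 CPM in the same order of groups, and the knockdown overlapped the control. Hspa9 (chr18:34937414-34954351) was 1331 and 1472 CPM in the shRNA control, 1055 and 1822 in the knockdown, 2780 and 1904 in the empty vector, and 1728 and 1674 with overexpression. Both empty vector libraries stood above both shRNA control libraries and both overexpression libraries. The log2 ratio of Hspa9 was 0.74 (SE 0.29) for empty vector against shRNA control, with unadjusted p = 0.0348 and edgeR adjusted p = 0.37. Overexpression against empty vector gave -0.46 (SE 0.29, edgeR adjusted p = 0.614), and these contrasts share the empty vector libraries. Without empty vector library 1 these ratios were 0.44 and -0.16.

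**Figure D3:**
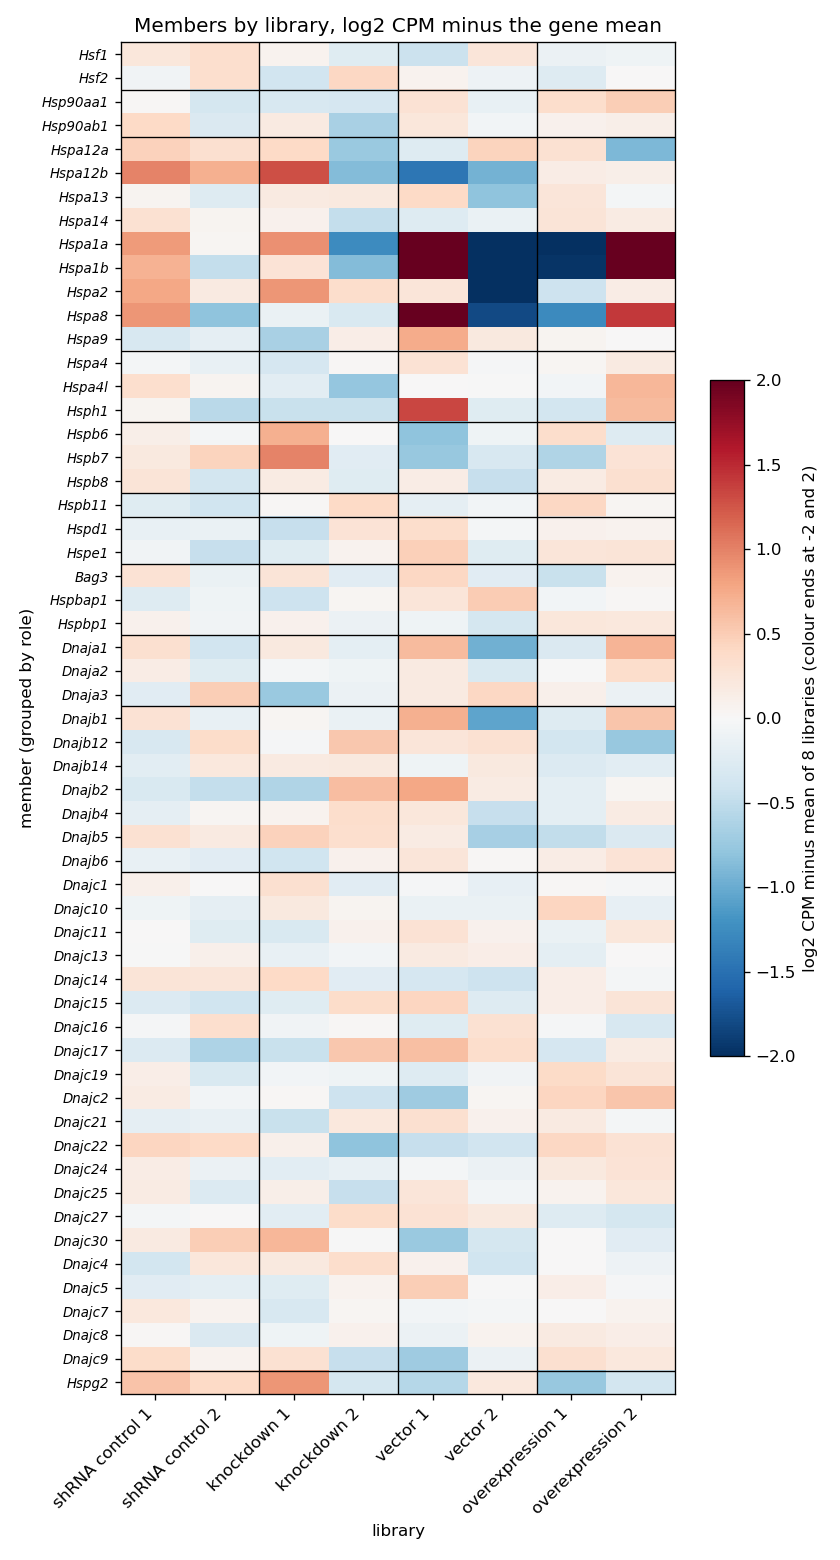
Log2 CPM of each of the 57 tested members in the 8 libraries, minus the mean of that gene over the 8 libraries (colour, red above and blue below the mean, ends at -2 and 2), with members grouped by role from heat shock factors at the top to Hspg2 at the bottom. The strongest colours are those of Hspa1a, Hspa1b and Hspa8 in the empty vector and overexpression libraries, and most DNAJC members are paler than these 3 genes there.

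Other HSP70 members were of low level or even between groups. Hspa2, an HSP70 best known from the testis, was 6.34 and 4.20 CPM in the shRNA control, 6.85 and 4.73 in the knockdown, 4.39 and 0.824 in the empty vector, and 2.78 and 4.14 with overexpression. Its lowest library was again empty vector library 2. Hspa12b, an atypical HSP70 known from endothelium, was 5.55 and 4.57 CPM, 6.80 and 1.53, 1.02 and 1.44, and 3.09 and 3.03 CPM in the same order of groups. Both empty vector libraries were below all the others, and the knockdown libraries enclosed the control. Its log2 ratio was -2.03 (SE 0.67, unadjusted p = 0.0169, edgeR adjusted p = 0.354) for empty vector against shRNA control and 1.31 (SE 0.67, adjusted p = 0.598) for overexpression against empty vector. Hspa13, a microsomal HSP70-like protein, was 113 and 90.9 CPM in the shRNA control, 122 and 123 in the knockdown, 143 and 62.1 in the empty vector, and 129 and 106 with overexpression. Its knockdown libraries lay above the control by a log2 ratio of 0.27 (SE 0.36, edgeR adjusted p = 0.992).

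Small heat shock proteins hold unfolded clients without ATP. A row for Hspb1, the best known of them, was not analysed here. Hspb8, the partner of Bag3 in selective autophagy, was 259 and 168 CPM in the shRNA control, 244 and 183 in the knockdown, 242 and 158 in the empty vector, and 244 and 271 with overexpression. The 3 other groups repeated nearly the same pair of values, and only the overexpression libraries were both above 240 CPM. The overexpression log2 ratio was 0.37 (SE 0.29, edgeR adjusted p = 0.66). Hspb6 ranged from 20.8 to 59.5 CPM and Hspb7 from 0.642 to 2.197 CPM, each with its highest value in knockdown library 1 and its lowest in empty vector library 1. Hspb11, named as a small heat shock protein but known as a subunit of the intraflagellar transport machinery, was 12.9 and 11.6 CPM in the shRNA control and 15.5 and 20.1 CPM in the knockdown. The knockdown libraries lay above the control by a log2 ratio of 0.54 (SE 0.26, unadjusted p = 0.0728, edgeR adjusted p = 0.992).

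Bag3 links HSP70 to Hspb8 and is itself a known HSF1 target. It measured 67.1 and 50.3 CPM in the shRNA control, 65.8 and 46.9 in the knockdown, 73.0 and 47.0 in the empty vector, and 40.1 and 57.4 with overexpression. The control and knockdown pairs were nearly the same, and the order of libraries was that of Hspa8 in each group. Its log2 ratio was -0.06 (SE 0.31) in the knockdown and -0.30 (SE 0.31) with overexpression, with edgeR adjusted p of 0.998 and 0.72. Hspbp1, another nucleotide exchange factor of HSP70, was 30.1 and 24.99 CPM in the empty vector and 37.3 and 36.9 CPM with overexpression. The overexpression libraries were higher by a log2 ratio of 0.43 (SE 0.21, unadjusted p = 0.07, edgeR adjusted p = 0.598). Hspbap1, which binds small heat shock proteins, was 24.0 and 29.0 CPM in the empty vector and 19.5 and 20.7 CPM with overexpression, a log2 ratio of -0.40 (SE 0.24, adjusted p = 0.61).

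HSP110 member Hspa4l was 32.4 and 26.9 CPM in the shRNA control, 22.3 and 15.0 in the knockdown, 25.8 and 25.5 in the empty vector, and 24.8 and 40.7 with overexpression. Both knockdown libraries lay below the control, and the overexpression libraries enclosed those of the empty vector. The knockdown log2 ratio was -0.67 (SE 0.31, unadjusted p = 0.0624, edgeR adjusted p = 0.992). Hspa4, its abundant relative, ranged from 445 to 688 CPM with log2 ratios of -0.05 (SE 0.20) and -0.03 (SE 0.20) in the Ntoco comparisons.

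In the overexpression comparison the members with the smallest p-values were DNAJ proteins. Dnajc2 and the HSP70 Hspa14 form the ribosome-associated chaperone pair that meets new chains as they leave the ribosome. Dnajc2 was 222 and 191 CPM in the shRNA control, 202 and 149 in the knockdown, 121 and 204 in the empty vector, and 267 and 292 with overexpression. The overexpression libraries were the highest of the 8. Its log2 ratio was 0.78 (SE 0.28) for overexpression against empty vector, with unadjusted p = 0.0232 and edgeR adjusted p = 0.598. Without empty vector library 1 the ratio was 0.46. Hspa14 was 109 and 91.7 CPM in the shRNA control, 93.6 and 63.8 in the knockdown, 74.1 and 80.7 in the empty vector, and 106 and 99.0 with overexpression. The overexpression libraries were above those of the empty vector by a log2 ratio of 0.41 (SE 0.23, edgeR adjusted p = 0.599).

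Dnajc22, a membrane protein with a J domain, was 26.6 and 26.1 CPM in the shRNA control, 21.1 and 11.2 in the knockdown, 14.3 and 15.1 in the empty vector, and 26.3 and 24.1 with overexpression. The shRNA control and overexpression libraries formed the high values, and all knockdown and empty vector libraries were lower. The knockdown log2 ratio was -0.70 (SE 0.30, unadjusted p = 0.0512, edgeR adjusted p = 0.992). Overexpression against empty vector gave 0.78 (SE 0.31, unadjusted p = 0.0352, edgeR adjusted p = 0.598). The difference of these effects was 1.48 (SE 0.43, unadjusted p = 0.00933), and its edgeR adjusted p was 0.65. Leaving out knockdown library 2 gave -0.32 for the knockdown and 1.09 for the difference, and leaving out knockdown library 1 gave -1.23 and 2.01. The empty vector itself differed from the shRNA control by -0.84 (SE 0.31, adjusted p = 0.367), so the control arms were as far apart as the knockdown and its control.

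Dnajb12, a J protein of the ER membrane, was 47.7 and 77.0 CPM in the shRNA control, 58.6 and 86.0 in the knockdown, 69.9 and 73.4 in the empty vector, and 46.3 and 35.3 with overexpression. The overexpression libraries were the lowest of the 8, although overexpression library 1 lay close to shRNA control library 1. The overexpression log2 ratio was -0.81 (SE 0.30, unadjusted p = 0.0255, edgeR adjusted p = 0.598). Dnajc27, a small GTPase with a J domain, was 41.5 and 38.7 CPM in the empty vector and 28.3 and 26.3 CPM with overexpression, a log2 ratio of -0.55 (SE 0.24, unadjusted p = 0.0474, edgeR adjusted p = 0.598). In the hairpin libraries it was 32.8 and 33.9 CPM in the control and 29.1 and 43.6 CPM in the knockdown, which enclosed the control.

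Members whose 2 libraries in one group lay wholly above or below those of the other were counted beside all genes. In the knockdown, 6 of 57 (10.5%) were higher, beside 15.1% of all genes tested: Dnajb4, Dnajb5, Dnajc10, Dnajc15, Hspa13 and Hspb11. A further 6 (10.5%) were lower, beside 14.1% of all genes: Dnajc13, Dnajc22, Dnajc24, Dnajc7, Hsf1 and Hspa4l. With overexpression, 16 were higher (28.1%) and 9 were lower (15.8%), beside 24.1% and 23.1%. Among the higher 16 were Dnajc9, a histone chaperone, with a log2 ratio of 0.65 (SE 0.30), and Dnajc19, part of the mitochondrial import motor, with 0.48 (SE 0.23). Among the lower 9 were Dnajb2, a ubiquitin-binding HSP40, at -0.58 (SE 0.39), and Dnajc13, an endosomal J protein, at -0.24 (SE 0.17). The edgeR adjusted p was 0.598 for Dnajc9 and Dnajc19, 0.626 for Dnajb2 and 0.633 for Dnajc13.

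**Figure D4:**
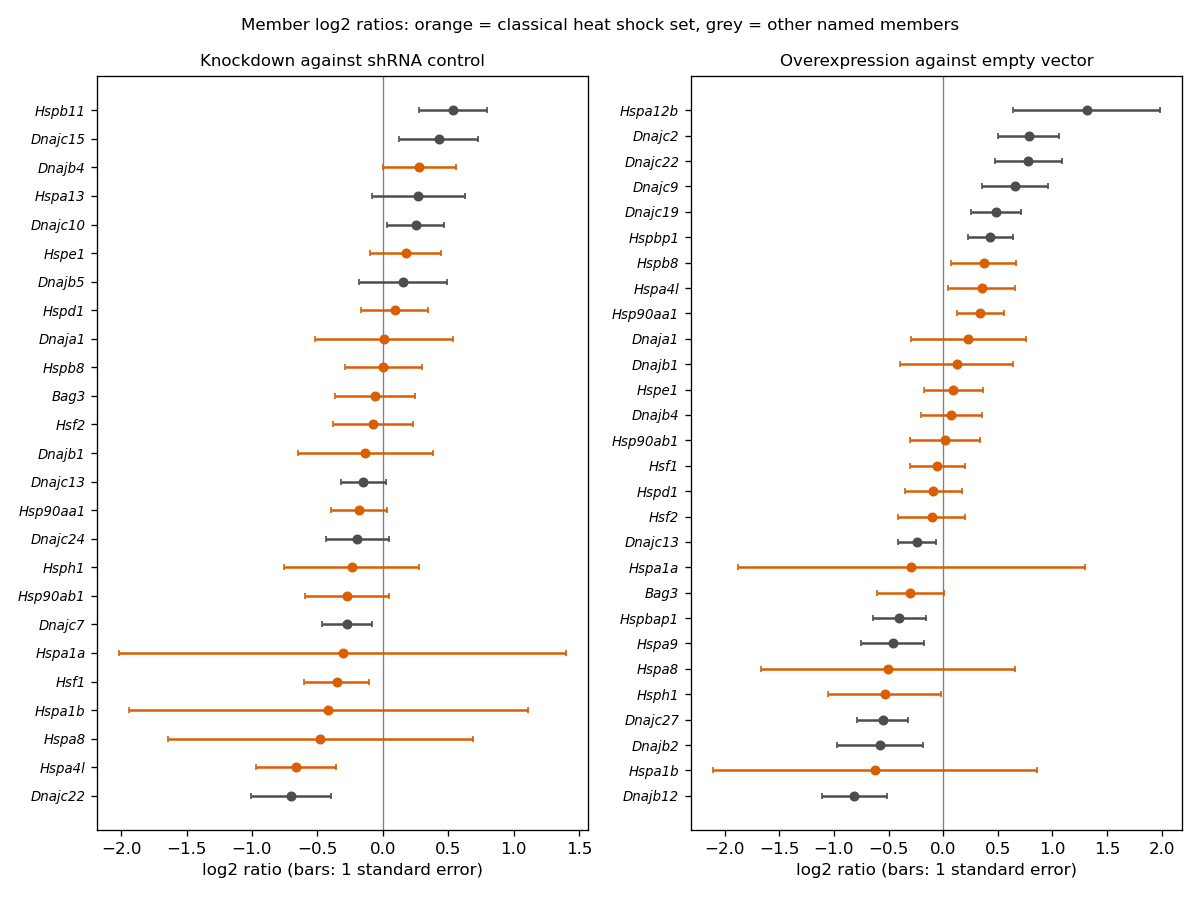
Log2 ratio of the named members in the knockdown against shRNA control (left) and in overexpression against empty vector (right), from the edgeR model, with bars of 1 standard error, ordered by size (orange for the classical set, grey for the others). The longest bars belong to Hspa1a, Hspa1b and Hspa8, and no member passed the adjusted threshold.

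The control arms were compared in the same way, since they show how far groups without a Ntoco vector or hairpin differ. Empty vector against shRNA control had 14 members wholly higher and 14 wholly lower of 57, beside 24.6% and 26.5% of all genes tested. At an unadjusted p below 0.05, 1 member was higher (Hspa9) and 4 were lower (Dnajc14, Dnajc22, Dnajc30 and Hspa12b), beside 6.45% and 6.1% of all genes. Dnajc30, a mitochondrial J protein, was 22.7 and 28.2 CPM in the shRNA control and 11.98 and 15.8 CPM in the empty vector, a log2 ratio of -0.87 (SE 0.30, edgeR adjusted p = 0.354). Dnajc5, the cysteine string protein of secretory vesicles, was 269 and 275 CPM in the shRNA control and 446 and 316 CPM in the empty vector, a log2 ratio of 0.49 (SE 0.22, adjusted p = 0.407). Values for Hsph1 were 0.96 (SE 0.52, adjusted p = 0.445) and for Hspa8 0.86 (SE 1.17, adjusted p = 0.742), and both rest on empty vector library 1.

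The difference between the overexpression effect and the knockdown effect was tested directly for every gene. Again 0 members passed the adjusted threshold in edgeR. At an unadjusted p below 0.05, 4 members were higher (Dnajc2, Dnajc22, Hspa14 and Hspa4l) and 1 was lower (Dnajb12), beside 3.57% and 3.35% of all genes tested. Dnajc2 gave 1.02 (SE 0.39), Hspa14 gave 0.76 (SE 0.32), Hspa4l gave 1.02 (SE 0.43) and Dnajb12 gave -1.03 (SE 0.42). The edgeR adjusted p was 0.65 for each of them.

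Hspg2 matched the rule by its name only: it encodes perlecan, a proteoglycan of basement membranes. It was 581 and 515 CPM in the shRNA control, 725 and 306 in the knockdown, 263 and 452 in the empty vector, and 231 and 302 with overexpression. The highest value was in knockdown library 1, which also had the highest summed fibroblast list (4845 CPM), and knockdown library 2 was at 1464 CPM on that list. The part of those genes in the Hspg2 values was not tested.

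Chaperone partners outside the member set were read from lists of the same pathway, and 0 of their genes passed the adjusted threshold in edgeR in any of the 4 contrasts. Of 16 HSP90 cochaperones, 0 had an unadjusted p below 0.05 in either Ntoco comparison, and 7 were wholly higher with overexpression, beside the 24.1% of all genes. For empty vector against shRNA control, 2 of the 16 were higher at that level, beside 6.45% of all genes: Ppid at 0.89 (SE 0.33) and Chordc1 at 0.69 (SE 0.27). Of 14 subunits of the cytosolic chaperonin TRiC and of prefoldin, which fold actin and tubulin, 8 were wholly higher with overexpression and 0 wholly lower, beside 24.1% and 23.1% of all genes. For empty vector against shRNA control 10 of these 14 were wholly higher and 1 wholly lower, beside 24.6% and 26.5%. For overexpression against empty vector, Tcp1 had a log2 ratio of 0.65 (SE 0.23) and Vbp1 had 0.54 (SE 0.21). Their unadjusted p in edgeR was 0.022 and 0.0345. Of 10 proteasome and degradation genes, 7 were wholly higher with overexpression and 0 wholly lower, beside 24.1% and 23.1% of all genes. In the knockdown 1 was wholly higher and 3 wholly lower, beside 15.1% and 14.1%. Among these 10, Psmc1 had a log2 ratio of 0.64 (SE 0.19, unadjusted p = 0.00881 in edgeR) with overexpression. For empty vector against shRNA control it had -0.62 (SE 0.19, unadjusted p = 0.01 in edgeR), and these contrasts share the empty vector.

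The ER chaperones that the rule leaves out shared the order of the empty vector libraries but mostly not that of the overexpression libraries. Hspa5 (BiP), the HSP70 of the ER, was 3269 and 4400 CPM in the shRNA control, 3318 and 6043 in the knockdown, 7730 and 3536 in the empty vector, and 4656 and 4384 with overexpression. It was high in empty vector library 1 and knockdown library 2, and it was not raised in overexpression library 2. Of the 13 ER genes, all 13 were higher in empty vector library 1 than in library 2, 6 of them by more than 1 log2 unit, as were 48.5% and 3.05% of all genes and 37 and 8 of the 57 members. With overexpression library 2 above library 1 as well, the order held for 3 of the 13 (23.1%), among them Dnajb9. The same full order held for 8 of 16 HSP90 cochaperones and 8 of 14 TRiC and prefoldin genes, beside 29.4% of all genes. Of 19 other heat shock responsive genes, 7 had it and 7 had the opposite order. Of 13 nucleotide exchange and partner factors of HSP70, only 1 had it and 5 had the opposite order. Of 10 proteasome and degradation genes, 3 had it and 2 had the opposite order. Ddit3, the ER stress transcription factor CHOP, was 39.4 and 64.4 CPM in the shRNA control, 85.5 and 215 in the knockdown, 133 and 100 in the empty vector, and 60.0 and 71.1 with overexpression. Both knockdown libraries lay above both controls, with a log2 ratio of 1.53 (SE 0.44) and an unadjusted p of 0.00811 in edgeR.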

How the data were processed

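All 8 columns (4 groups of 2 libraries) were used. The authors deposited raw read counts per gene, which are whole numbers, and FPKM values that equal count over gene length and library total in 12615 of 12615 genes counted in all libraries (tolerance 0.01). Per the submitters' processing notes, Trimmomatic, HISAT2, Cufflinks, HTSeq, DESeq and build mm10 were used; their versions, the annotation and the strand setting are not given in these sources, so overlapping antisense reads cannot be told apart. Libraries were made with a stranded kit for polyadenylated RNA, per the labels' protocols.

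Genes were filtered with filterByExpr (minimum count 10), scaled by TMM and fitted with edgeR 4.0.16 (R 4.3.3) in a single quasi-likelihood model of all groups, prior count 0.125, with 4 residual degrees of freedom (biological coefficient of variation 28.0%). Benjamini-Hochberg adjustment ran over the 12115 genes (threshold 0.05). CPM values use TMM library sizes. The 2 libraries of a group differed beyond counting noise (chi-square per gene 62.1 to 156, where 1 is noise). Alternatives included DESeq2 1.42.0. The fit was tested on simulated data.

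The members, pathway lists and rules were chosen with earlier results of these data known. Named were the classical heat shock set, up to 6 higher and 6 lower members per comparison by unadjusted p among those whose libraries do not overlap, the 5 highest members per length, the 3 with the widest range, and up to 3 genes of each other list per comparison. Hspa4, Hspa5, Hspb6 and the interferon-related genes were added after their values were seen. Promoters and coordinates are from RefSeq GRCm38.p6, 1-based. Promoters of Dnajc11, Dnajc12, Dnajc18, Dnajc2, Dnajc22, Dnajc30, Dnajc5, Dnajc5b, Hsf1, Hsp90aa1, Hsp90ab1, Hspa13, Hspa8, Hspa9 and Hspb2 were not analysed here.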

Additional observations from a re-analysis of the deposited data

How the results depend on the processing

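Under all alternatives run, 0 members were called in any contrast, DESeq2 included, while the number of all genes called moved. DESeq2 called 15 genes in the knockdown, 1 with overexpression, 281 for empty vector against shRNA control and 12 for the difference of effects. With only the 2 groups compared in the model, 1 gene was called with overexpression and 128 between the control arms, where no filter on low counts gave 3. Leaving out 1 library gave 0 to 1 genes in the knockdown (1 without knockdown library 1), 0 to 25 with overexpression (25 without overexpression library 2), 0 to 97 between the control arms (97 without overexpression library 1 and 96 without overexpression library 2) and 0 to 1 for the difference of effects. The median log2 ratio of the members then ran from -0.14 to 0.076 in the knockdown, from -0.12 to 0.23 with overexpression, from -0.086 to 0.13 between the control arms and from -0.10 to 0.15 for the difference of effects.

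Ratios of the genes that differ between libraries changed sign when 1 library was left out. In the knockdown the ranges were -1.09 to 0.60 for Hspa8, -1.10 to 0.28 for Hspa1b, -0.51 to 0.088 for Hsph1, -0.35 to 0.10 for Dnajb1, -0.33 to 0.16 for Bag3, -0.35 to 0.011 for Hsp90aa1, -0.76 to 0.11 for Hsp90ab1 and -0.32 to 0.40 for Hspd1. With overexpression they were -2.39 to 2.43 for Hspa8, -3.79 to 3.79 for Hspa1b, -1.12 to 0.47 for Hsph1, -0.50 to 1.26 for Dnajb1, -0.58 to 0.054 for Bag3, -0.35 to 0.33 for Hsf1, -0.12 to 0.16 for Hsp90ab1 and -0.27 to 0.12 for Hspd1. The difference of effects for Hspa8 ran from -1.91 to 2.91.

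With the library number as a replicate block, the overexpression ratio was 0.17 for Hspa8 and 0.31 for Hspa1b, and the difference of effects was 0.44 for Hspa8; the block changed no call of a member. The deviations of same-numbered libraries correlated at 0.36 between shRNA control and knockdown and at -0.22 between empty vector and overexpression, and the labels tie no numbers together. With the overexpression numbers crossed, a pairing added after seeing the data, 0 members were called and Hspa8 was 0.041 in the knockdown. Hsp90ab1 with overexpression was -0.000135 with only the 2 groups compared. Without a filter, 16 members differed by more than 1 log2 unit between libraries in the knockdown, 16 in the empty vector and 8 with overexpression; with at least 100 counts in at least 2 libraries it was 4 in the knockdown and 3 with overexpression. The causes were not tested. Non-overlap counts were not run with a library left out. Depth limits Hspa1a, Hspa2, Hspa12a and Hspb7, whose lowest libraries hold few counts.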

Other observations

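Egr1, an immediate early transcription factor that also responds to heat shock, ran opposite to Hspa8 within 3 of the 4 groups, an order noticed after its values were seen. It was 260 and 1683 CPM in the shRNA control, 241 and 678 in the empty vector, and 770 and 181 with overexpression. In the knockdown, Egr1 was 555 and 172 CPM and Hspa8 was also higher in library 1. Of the 19 tested genes of the same list, 3 were higher and 1 was lower for empty vector against shRNA control at an unadjusted p below 0.05, beside 6.45% and 6.1% of all genes, and the list median was -0.08 (log2). Sqstm1, an autophagy receptor, had a log2 ratio of 1.10 (SE 0.29, unadjusted p = 0.00571 in edgeR) and Hmox1, the inducible haem oxygenase, had 1.12 (SE 0.31, unadjusted p = 0.00719). Creb5 had 1.44 (SE 0.40, unadjusted p = 0.00742) and Slc5a3, a myo-inositol transporter, had -0.73 (SE 0.28, unadjusted p = 0.0291). None of these 4 passed the adjusted threshold.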
